A study of Mus musculus with 24 samples.

Results

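The dopamine genes are a list of 9 genes, *Th*, *Ddc*, *Slc6a3*, *Slc18a2*, *Drd1a*, *Drd2*, *Maoa*, *Maob* and *Ppp1r1b*, chosen by symbol, and all 9 were present among the 13998 genes of the deposited table. They were measured by SAGE-Seq, which counts 1 short tag per transcript near its 3′ end, in the hypothalamus of 24 male F2 mice. Of these, 12 were *cast/cast* (homozygous for CAST/EiJ alleles) and 12 were *b6/b6* (homozygous for C57BL/6J alleles) across the Chr 17 subcongenic segment of the B6.CAST-17.1 strain, and both were *b6/b6* in the rest of the genome. The F2 came from 1 B6.CAST-17.1 male mated to C57BL/6J females, whose F1 offspring were intercrossed. All mice had a 10 d choice between a carbohydrate/protein (C/P) and a fat/protein (F/P) diet at an age of 10 to 16 weeks, went back to chow, and had the diets again for 48 h before a 4 h fast and harvest. The *cast/cast* mice were those with the highest and the *b6/b6* mice those with the lowest carbohydrate intake, so genotype and intake cannot be told apart in this comparison, which asks whether the genes differed between mice that carried the CAST segment and ate mostly carbohydrate and mice that did neither. None of the 9 genes lies on Chr 17, so the alleles that distinguish the genotypes are not at these genes.

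Dopamine is made from tyrosine in a pair of steps, loaded into vesicles, released, taken back up or broken down, and sensed by G protein-coupled receptors. *Th* encodes tyrosine hydroxylase, the rate-limiting enzyme of catecholamine synthesis, and *Ddc* the decarboxylase that turns L-DOPA into dopamine. *Slc18a2* encodes the vesicular monoamine transporter VMAT2, *Slc6a3* the plasma membrane dopamine transporter DAT, and *Maoa* and *Maob* the mitochondrial monoamine oxidases. *Drd1a* (now *Drd1*) and *Drd2* encode receptors that raise and lower cAMP, respectively, and *Ppp1r1b* encodes DARPP-32, a phosphatase inhibitor phosphorylated downstream of them. In the hypothalamus, dopamine neurons of the arcuate nucleus restrain prolactin release from the pituitary, whereas the neurons that project to the striatum lie in the midbrain.

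A SAGE tag starts at a CATG site, the cut site of NlaIII, and the tag counted is that of the site nearest the 3′ end. The deposited table gives no tag sequences, so the 27-base tags expected for the 9 genes were read from GENCODE M21 transcripts (GRCm38). They are shown because each measurement below is a count of such a tag, with the CATG site in capitals.
Th (chr7:142892801-142892827, - strand): CATGctgtattctaccctgattattat
Ddc (chr11:11814399-11814425, - strand): CATGtgtgtctccaacattaaccagaa
Slc6a3 (chr13:73578574-73578600, + strand): CATGtataaatccaggtgttgtcagca
Slc18a2 (chr19:59295810-59295836, + strand): CATGtaccagaacaaagaacttacagc
Drd1a (chr13:54051311-54051337, - strand): CATGtggatagaactgaaggaagggct
Drd2 (chr9:49408134-49408160, + strand): CATGcaccaaaccaataaaaccttgac
Maoa (chrX:16686943-16686969, + strand): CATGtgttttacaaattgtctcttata
Maob (chrX:16709292-16709318, - strand): CATGcttaggtaattaacaataaagct
Ppp1r1b (chr11:98357556-98357582, + strand): CATGtccctcccttagtatcccattcc
All 9 expected tags lie in the 3′ UTR in the last exon of the gene, and none occurs in a GENCODE M21 transcript of another gene. The search was for exact matches in transcripts and did not cover the rest of the genome. Apart from *Drd2*, each lies within the transcript that the deposited table lists. The *Drd2* tag lies 946 bases past the end of that transcript (chr9:49340662-49407214), whose own last CATG site would give the tag CATGaagatcctgcactgctgagtctg (chr9:49407073-49407099). Which of these tags was counted for *Drd2* was not tested, and the second tag was not searched for in transcripts of other genes.

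Promoter sequences, from 250 bases before to 50 after a transcription start in RefSeq (GRCm38.p6), were searched on both strands for the cAMP response element TGACGTCA (CRE), the NBRE AAAGGTCA bound by NR4A receptors, and the GC box GGGCGG, and these searches do not overlap one another. Entries were found for 7 of the 9 genes, not for *Maob* and *Ppp1r1b*. *Th* and *Slc18a2* each held a CRE, a sequence found in 1.79% of all 32851 promoters. *Ddc* held an NBRE on the minus strand at -73 to -66 from 1 of its starts, against 1.51% of promoters. A GC box, found in 35.7% of promoters, stood in the windows of *Th*, *Slc6a3*, *Slc18a2*, *Drd1a*, *Drd2* and *Maoa*. The 250 bases before the starts of *Th* and *Slc18a2* are shown because these genes share the CRE, and CREs and GC boxes are in capitals.
Th (chr7:142899996-142900245, - strand): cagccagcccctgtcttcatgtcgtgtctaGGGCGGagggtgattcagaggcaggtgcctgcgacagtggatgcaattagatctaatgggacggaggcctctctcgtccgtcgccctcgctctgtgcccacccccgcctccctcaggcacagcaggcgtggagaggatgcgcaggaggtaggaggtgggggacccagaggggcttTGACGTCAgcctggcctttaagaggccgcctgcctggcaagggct
Slc18a2 (chr19:59260628-59260877, + strand): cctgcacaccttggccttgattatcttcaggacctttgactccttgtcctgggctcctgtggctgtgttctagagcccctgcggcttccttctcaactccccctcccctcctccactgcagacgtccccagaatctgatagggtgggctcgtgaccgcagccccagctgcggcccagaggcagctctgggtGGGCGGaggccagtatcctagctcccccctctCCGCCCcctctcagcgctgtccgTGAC
In *Th* the CRE lies at -45 to -38, and in *Slc18a2* it spans the start at -4 to 4, so that only its first bases are in the stretch above. A match is a description of the letters only, and whether these sites had a part in the levels measured here was not tested.

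The libraries held 7754202 to 13082873 tag hits per mouse. A normalized count, the unit used below, is the number of tag hits of a gene divided by the size factor of the library, and the smallest level taken as detectable, 3 tag hits, corresponded to 2.36 to 3.81 normalized counts. These limits cover counting error only, since tags carry no molecular identifiers. A principal component analysis of 9204 genes outside Chr 17, without the 9 dopamine genes, placed 39.4% of the variance on its first and 20.01% on its second component. On the first, 10 mice (6 *b6/b6*, 4 *cast/cast*) had positive scores and are called the upper set below, while *b6/b6* mice 6 and 12 stood apart on the second, and the other 12 mice (4 *b6/b6*, 8 *cast/cast*) are called the lower set. The upper *b6/b6* mice had study numbers of 288 to 364 and all other *b6/b6* mice of 251 or less, whereas the 4 upper *cast/cast* mice ranged from 15 to 270. The study used 5 cohorts and 2 fat sources, and which mouse belonged to which is not given in the labels. The genotype differences are therefore also given within the sets or with the components as covariates, alternatives that were chosen after the data were seen. Within the upper set the first component still went with genotype. Apart from *b6/b6* mouse 1 (score 0.278), each *b6/b6* mouse there scored below every *cast/cast* mouse, the lowest being mouse 8 (0.248). A genotype difference within the upper set, or its contrast with the lower set, is therefore not free of that component.

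Because a SAGE library counts 1 tag per transcript, levels can be compared between genes without a correction for length. *Maob* had the highest mean of the 9 genes (1529 normalized counts over 24 mice), above 90.4% of all genes, followed by *Th* (791), *Maoa* (351), *Ddc* (304), *Slc18a2* (287), *Drd1a* (194), *Slc6a3* (88.5), *Ppp1r1b* (86.6) and *Drd2* (6.98). *Drd2* was lower than all but 1.19% of the genes of the table, which holds none with a mean under 6.03. This level holds for the tag that was counted, since its expected tag lies outside the listed transcript. The order did not separate all neighbours. *Maoa* exceeded *Ddc* in 13 of 24 mice, *Ddc* exceeded *Slc18a2* in 12, and *Slc6a3* exceeded *Ppp1r1b* in 11, whereas *Maob* exceeded *Th*, *Th* exceeded *Maoa* and *Ppp1r1b* exceeded *Drd2* in all 24. Within a mouse, *Maob* was 1.34 to 10.6 times *Maoa* (median 4.44) and *Th* was 2.42 to 27.3 times *Slc6a3* (median 9.66), so the transcript of the synthesis enzyme was more abundant than that of the reuptake transporter in every mouse. In this bulk tissue, fewer cells of a type and less RNA per cell cannot be told apart.

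**Figure D1:**
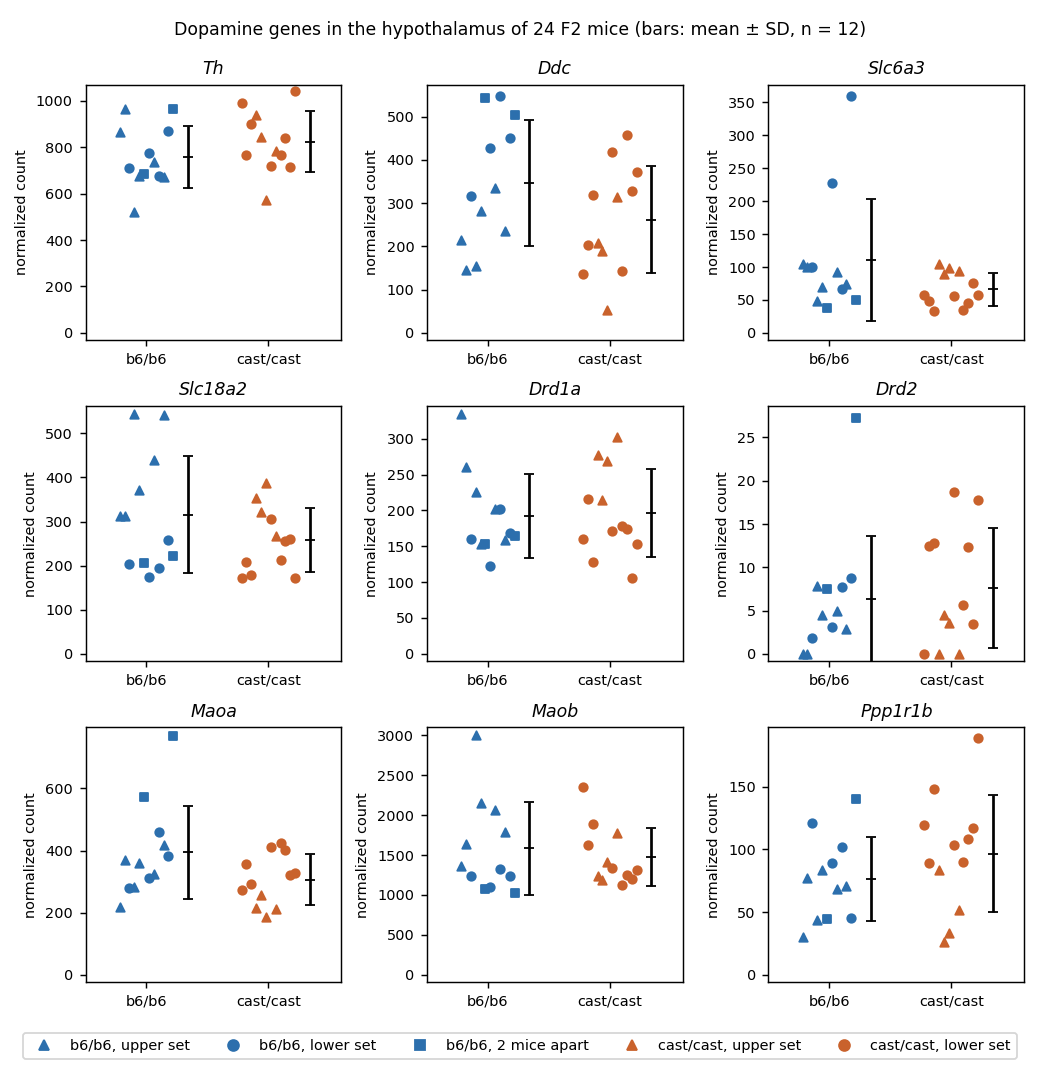
Normalized counts (y axes, tag hits divided by the size factor, 1 scale per gene) of the 9 dopamine genes in 12 *b6/b6* (blue) and 12 *cast/cast* (orange) mice, 1 point per mouse, with the marker shape giving the set of libraries and black bars the mean ± SD. The genotypes overlap for every gene; the *Slc6a3* values of *b6/b6* mice 11 and 7 (359 and 227) stand above all others, and for *Slc18a2* the triangles of the upper set lie mostly above the circles of the lower set.

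Between genotypes, none of the 9 genes met the rule of the study, an unadjusted *P* of 0.01 or less together with mean normalized counts that differ by a factor of 1.5 or more. That rule, applied to a limma fit over all genes on log2(normalized count + 1), called 208 of 13998 genes (1.49%) and 87 of the 12646 genes placed on a chromosome other than 17 (0.688%), so a count of 0 of 9 does not stand apart from the background. At an unadjusted *P* below 0.05 limma again gave 0 of 9, against 8.13% of all genes, and at an adjusted *P* of 0.05 or less it gave 0 of 9 against 0.572%. By the rule of the study edgeR (2.79% of all genes) and DESeq2 (2.82%) also called 0 of 9. At an unadjusted *P* below 0.05 each of these tools gave 1 gene, *Slc6a3*, against 11.6% of all genes for edgeR and 12.1% for DESeq2. The values of the genotypes overlapped for each of the 9 genes, as for all but 0.336% of the genes. The median log2 fold change (*cast/cast* minus *b6/b6*) was -0.06 over the 9 genes, 4 of them above 0, and -0.02 over all genes. Fold changes below are on the log2(normalized count + 1) scale, with the limma standard error and unadjusted *P*, and the lowest adjusted *P* of the 9 was 0.621.

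The synthesis enzymes did not meet the rule between genotypes. *Th* was 519 to 964 normalized counts in *b6/b6* mice (median 724) and 571 to 1042 in *cast/cast* mice (median 811), and only 2 *cast/cast* mice lay above and 1 *b6/b6* mouse below all mice of the other genotype. Its means were 760 ± 133 and 823 ± 132 (SD, n = 12 each), a log2 fold change of 0.12 ± 0.12 (SE, limma *P* = 0.322), with 0.15 within the lower and 0.09 within the upper set. *Th* was also the steadiest of the 9 genes, with a coefficient of variation of 17.5% among the *b6/b6* mice and 15.99% among the *cast/cast* mice, against 3.59% and 3.46% from counting alone. *Ddc* varied far more, from 145 to 548 (median 325) in *b6/b6* mice and from 53.4 to 458 (median 261) in *cast/cast* mice. The 3 highest mice were *b6/b6* and the 3 lowest *cast/cast*, with the other 18 overlapping. The *Ddc* means were 346 ± 146 and 262 ± 124, a log2 fold change of -0.47 ± 0.30 (limma *P* = 0.128), and the value was -0.65 within the lower set and -0.43 within the upper set. The enzymes of the same pathway therefore differed in how much they varied, and *Th* exceeded *Ddc* by 1.24 to 10.7 times within a mouse.

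*Slc6a3* had the largest log2 fold change of the 9 genes and the lowest mean ratio, and both rested on few mice. It was 38.3 to 359 normalized counts in *b6/b6* mice (median 83.0) and 33.0 to 104 in *cast/cast* mice (median 57.1). The *b6/b6* mice 11 (359) and 7 (227) were far above the next highest mouse, also *b6/b6* (105), and below that level the genotypes overlapped. The means were 111 ± 92.3 and 66.1 ± 25.3 (SD, n = 12), a ratio of 0.595 and a log2 fold change of -0.53 ± 0.29 (95% interval -1.13 to 0.07, limma *P* = 0.0828). The unadjusted *P* was 0.0218 in edgeR, 0.0172 in DESeq2 and 0.0102 in limma with both components as covariates (adjusted *P* of 0.361, 0.303 and 0.41). Leaving out mouse 11 brought the log2 fold change to -0.35 and leaving out mouse 7 to -0.41. Within the lower set the difference was -1.62 (limma *P* = 0.00057, adjusted *P* = 0.107) and met the rule of the study, as did 1.15% of all genes there, where the 4 *b6/b6* mice had 66.6 to 359 and the 8 *cast/cast* mice 33.0 to 75.2 normalized counts. Within the upper set it had the opposite sign, 0.28 (*P* = 0.252; 7.54% of all genes were called there), where the 6 *b6/b6* mice had 48.8 to 105 and the 4 *cast/cast* mice 89.2 to 104 normalized counts. The difference between the sets in the genotype effect was 1.90 (95% interval 0.94 to 2.86, limma interaction *P* = 0.000414, adjusted *P* = 0.0587), and 17.9% of all genes passed an unadjusted *P* of 0.05 in that test. Mice 11 and 7 were among the 4 *b6/b6* mice of the lower set, where the others, mice 3 and 9, had 100.5 and 66.6 normalized counts. The call in the lower set and the difference between the sets share mice 11 and 7, so they are not separate evidence. Neither was fitted again without them. The upper-set value and the difference between the sets are also not free of the first component, as stated above.

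The *b6/b6* mice 11 and 7, which were highest in *Slc6a3*, were also the highest mice for a pair of markers of midbrain dopamine neurons, a comparison made after their values were seen. *Chrna6*, a nicotinic receptor subunit, was at 161 in mouse 11 and 74.7 in mouse 7 against 1.23 to 74.3 in the other 22 mice (median 29.3). *Slc10a4*, a vesicular carrier of monoaminergic and cholinergic neurons, was at 33.0 and 43.6 against 4.75 to 31.4 (median 18.1). The other 5 markers of that list in the table did not single out these mice. *Nr4a2* ranked 3rd and 8th of 24 in these mice, *Sncg* 8th and 5th, *Lmx1a* 12th and 9th, *Aldh1a1* 7th and 17th and *Foxa1* 19th and 18th. *Pitx3*, *En1*, *En2*, *Foxa2* and *Lmx1b* are not among the genes of the table. The summed level of the 7 markers was 653 in mouse 11 and 610 in mouse 7, the highest and the fourth highest, and ranged from 236 to 653 among all *b6/b6* mice and from 185 to 630 among all *cast/cast* mice. Other lists also ranked high in mouse 7, which was 2nd of 24 for the summed thalamus markers (5116) and 2nd for the cortical excitatory markers (164), where mouse 11 ranked 13th (3126) and 11th (51.5). The hypothalamic sum ranked 17th in mouse 11 and 18th in mouse 7, and the striatal sum 20th and 15th. In the other 22 mice *Slc6a3* did not follow *Chrna6* (Pearson r = -0.06) or *Slc10a4* (r = -0.36). *Th* was at 870 normalized counts in mouse 11 and 774 in mouse 7, *Slc18a2* at 259 and 175, and *Ddc* at 452 and 426. These values were all inside the range of the other mice. For *Slc18a2* mouse 7 was the lowest of the *b6/b6* mice. Whether tissue from outside the hypothalamus, which was dissected by eye, was part of the *Slc6a3* values was not tested.

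**Figure D2:**
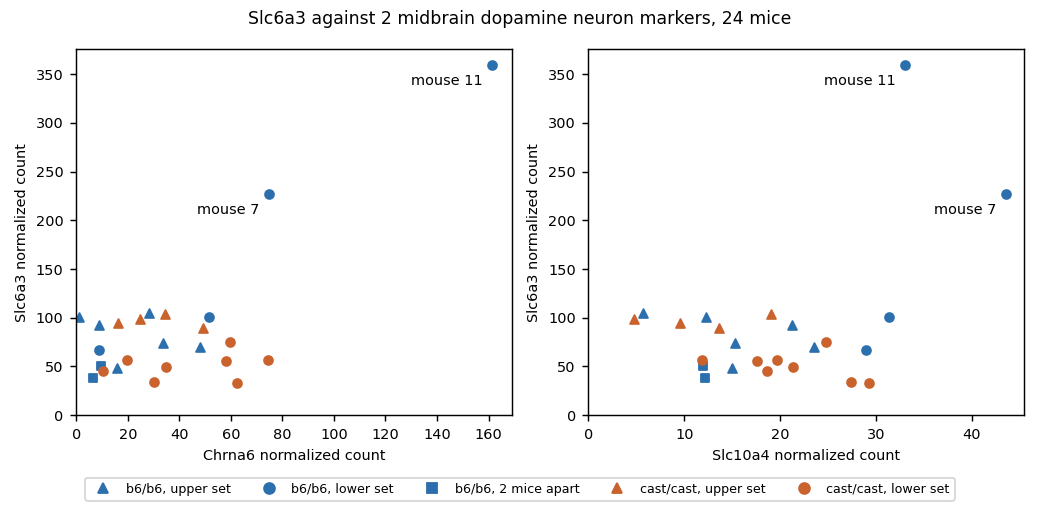
Normalized counts of *Slc6a3* (y axes) against those of *Chrna6* (left x axis) and *Slc10a4* (right x axis), 1 point per mouse, coloured by genotype and shaped by set. The *b6/b6* mice 11 and 7 lie at the upper right in both panels, at 359 and 227 for *Slc6a3*, and no trend is seen among the other 22 mice at 105 or less.

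*Slc18a2*, the vesicular transporter, did not meet the rule between genotypes, and its level was higher in the upper set of libraries. It was 175 to 543 normalized counts in *b6/b6* mice (median 286) and 172 to 387 in *cast/cast* mice (median 258), with 3 *b6/b6* mice above all *cast/cast* mice and 2 *cast/cast* mice below all *b6/b6* mice. The means were 315 ± 132 and 258 ± 72.4 (SD, n = 12), a log2 fold change of -0.23 ± 0.20 (limma *P* = 0.258). Over both genotypes the 10 mice of the upper set had 267 to 543 (median 363) and the 12 mice of the lower set 172 to 305 (median 206). Within the sets the genotype difference was 0.07 in the lower and -0.31 in the upper set.

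The monoamine oxidases did not meet the rule between genotypes. *Maoa* was 218 to 767 normalized counts in *b6/b6* mice (median 364) and 186 to 424 in *cast/cast* mice (median 308). Its highest values were the *b6/b6* mice that stood apart on the second component, 12 (767) and 6 (572). The means were 395 ± 149 and 307 ± 81.0 (SD, n = 12), a log2 fold change of -0.33 ± 0.18 (limma *P* = 0.0765). Without those 2 mice the log2 fold change was -0.17 (*P* = 0.295). Within the upper set it was -0.57 (limma *P* = 0.013) and within the lower set -0.02. With both components as covariates it was -0.13 (limma *P* = 0.221), and with study number as a covariate -0.41 (limma *P* = 0.0286, adjusted 0.298). *Maob*, the form abundant in astrocytes, was 1030 to 2996 in *b6/b6* mice (median 1342) and 1122 to 2354 in *cast/cast* mice (median 1323), with means of 1583 ± 583 and 1474 ± 368. The log2 fold change was -0.06 ± 0.17 (*P* = 0.715), with -0.48 (*P* = 0.0363) within the upper and 0.26 (*P* = 0.167) within the lower set. The test of the difference between the sets gave an unadjusted *P* of 0.0142 for *Maob* and 0.0392 for *Maoa* (adjusted 0.17 and 0.25). This test and the upper-set values are not free of the first component, which went with genotype in the upper set.

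The receptors were counted at very different levels, and neither met the rule between genotypes. *Drd1a* was 122 to 334 normalized counts in *b6/b6* mice (median 166) and 105 to 303 in *cast/cast* mice (median 176), with 1 *b6/b6* mouse above and 1 *cast/cast* mouse below all mice of the other genotype. The means were 192 ± 58.3 and 196 ± 61.4 (SD, n = 12), a log2 fold change of 0.01 ± 0.18 (95% interval -0.35 to 0.38, limma *P* = 0.936), and the sign turned when libraries were rescaled to the same total (-0.08). The value was -0.03 within the lower and 0.30 within the upper set. *Drd2* was at 0 in 2 *b6/b6* and 3 *cast/cast* mice and at or under 3 tag hits in 5 and 4 mice, the highest value being 27.2 in *b6/b6* mouse 12. Its medians were 4.71 and 5.11 and its log2 fold change 0.11 ± 0.59 (95% interval -1.09 to 1.32, *P* = 0.847), so that a difference of 2-fold in either direction lay within the interval and was not detectable at these counts. Its log2 fold change was 0.64 with both components as covariates (limma *P* = 0.211), 0.60 within the lower set (*P* = 0.409) and 0.44 without the 2 mice that stood apart (*P* = 0.467), while it was under the minimum mean in the upper set. *Drd1a* exceeded *Drd2* in all 24 mice, with the limit that the tag counted for *Drd2* is not known. *Ppp1r1b*, downstream of the receptors, was 30.5 to 140 in *b6/b6* mice (median 74.1) and 26.4 to 189 in *cast/cast* mice (median 96.8), with 2 *cast/cast* mice above all *b6/b6* mice and 1 below them. The means were 76.5 ± 33.2 and 96.7 ± 46.3, a log2 fold change of 0.27 ± 0.29 (*P* = 0.352). The value was 0.47 within the lower set and -0.41 within the upper set, and neither passed the rule.

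**Figure D3:**
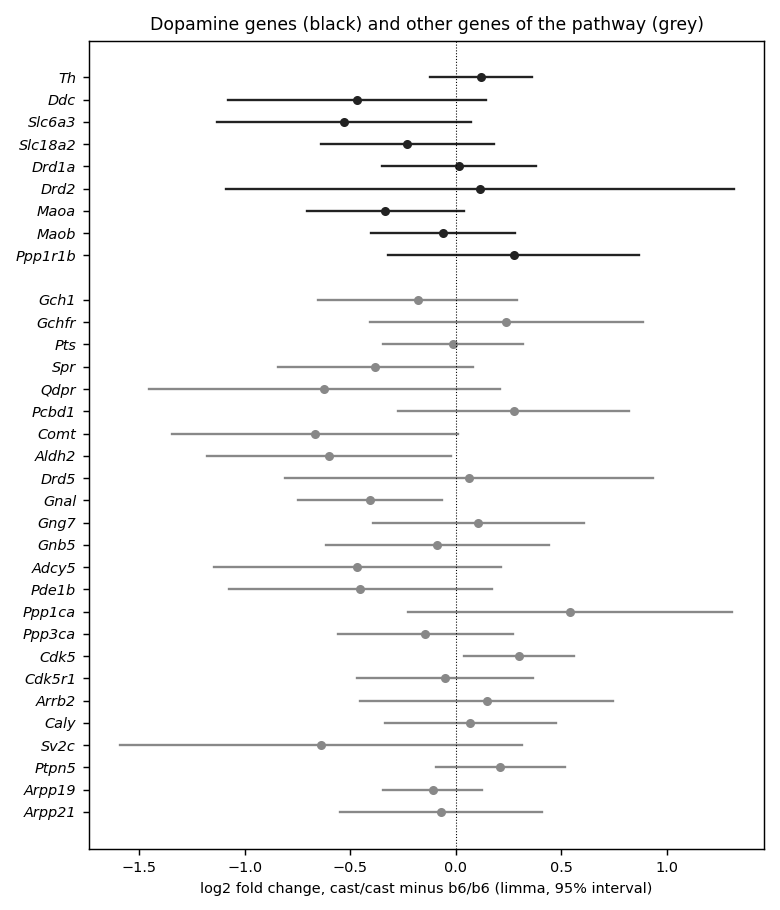
Log2 fold change (x axis, *cast/cast* minus *b6/b6*, on the log2(normalized count + 1) scale) of the 9 dopamine genes (black) and 24 of the 25 other genes of the pathway (grey), with points for the limma estimate and lines for its 95% interval. All 9 black intervals include 0, the widest being that of *Drd2* (-1.09 to 1.32), and among the grey ones only those of *Gnal*, *Cdk5* and *Aldh2* do not.

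Among 27 other genes of the pathway, for synthesis of the tetrahydrobiopterin cofactor, for breakdown, for the other receptors and for signalling behind them, 25 were in the table (*Drd3* and *Drd4* were not) and 0 met the rule. In limma 3 of the 25 had an unadjusted *P* below 0.05, 2 lower and 1 higher in *cast/cast* mice, against 8.13% of all genes. Their median log2 fold change was -0.07, with 9 above and 16 below 0, beside -0.02 over all genes. *Gnal*, the G protein that couples *Drd1a* to adenylyl cyclase in the striatum, had a log2 fold change of -0.41 ± 0.17 (*P* = 0.0215). *Cdk5*, a kinase that phosphorylates DARPP-32, had 0.30 ± 0.13 (*P* = 0.0251). *Aldh2*, the mitochondrial aldehyde dehydrogenase that acts after the oxidases, had -0.60 ± 0.28 (*P* = 0.0425), with 0.571 as the lowest adjusted *P* of the 25. By the rule of the study, *Aldh2* was called by edgeR (*P* = 0.00875) and DESeq2 (*P* = 0.00602), and by limma when *b6/b6* mouse 7 was left out (*P* = 0.00304). Without the 2 mice that stood apart its log2 fold change was -0.36 (*P* = 0.176), that of *Gnal* -0.20 (*P* = 0.0679) and that of *Cdk5* 0.20 (*P* = 0.0866).

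Across the mice the dopamine genes did not vary as one group. Of the 36 pairs, 16 had a positive Pearson r over the 24 mice, and 3 passed an adjusted *P* of 0.05 by permutation (*Drd2* with *Maoa*, *Ddc* with *Maoa*, and, inversely, *Drd1a* with *Ppp1r1b*). Because the mice fell into sets of libraries, values within the sets and with both components removed are given too. Scores on the first component ran from 0.058 to 0.446 in the upper set and from -0.165 to -0.064 in the lower set. An r within the upper set is therefore not free of that component. *Drd2* with *Maoa* had r = 0.56 in the 12 mice of the lower and 0.31 in the 10 mice of the upper set, *Ddc* with *Maoa* 0.32 and 0.39, and *Drd1a* with *Ppp1r1b* -0.28 and -0.41. In either set 0 of 36 pairs passed the adjusted threshold (lowest adjusted *P* by permutation 0.493 in the lower and 0.116 in the upper set), and 1 and 10 pairs had an unadjusted *P* below 0.05. With both components removed 0 of 36 passed and 3 had an unadjusted *P* below 0.05. These were *Slc18a2* with *Maoa* (r = 0.59, permutation *P* = 0.00281, adjusted 0.101), *Slc18a2* with *Maob* (r = 0.48, *P* = 0.0174, adjusted 0.253) and *Th* with *Slc18a2* (r = -0.47). The inverse relation of *Th* and *Slc18a2* had r = -0.44 in the lower and -0.69 in the upper set, and passed the adjusted threshold in neither. The transporters *Slc6a3* and *Slc18a2* had r = 0.11 in the lower and -0.70 in the upper set (permutation *P* = 0.0197, adjusted 0.116), and *Th* with *Slc6a3* -0.08 and 0.73 (*P* = 0.0126, adjusted 0.116). The largest r in the upper set was that of *Slc6a3* with *Maob* (-0.825, permutation *P* = 0.00431, adjusted 0.116). The receptors *Drd1a* and *Drd2* had r = 0.26 in the lower and -0.69 in the upper set. In the upper set *Drd2* was at 0 to 7.87 normalized counts (mean 2.83), at or near the smallest detectable level. Each r of *Drd2* there, also that with *Maoa*, therefore rests on counts of little precision.

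**Figure D4:**
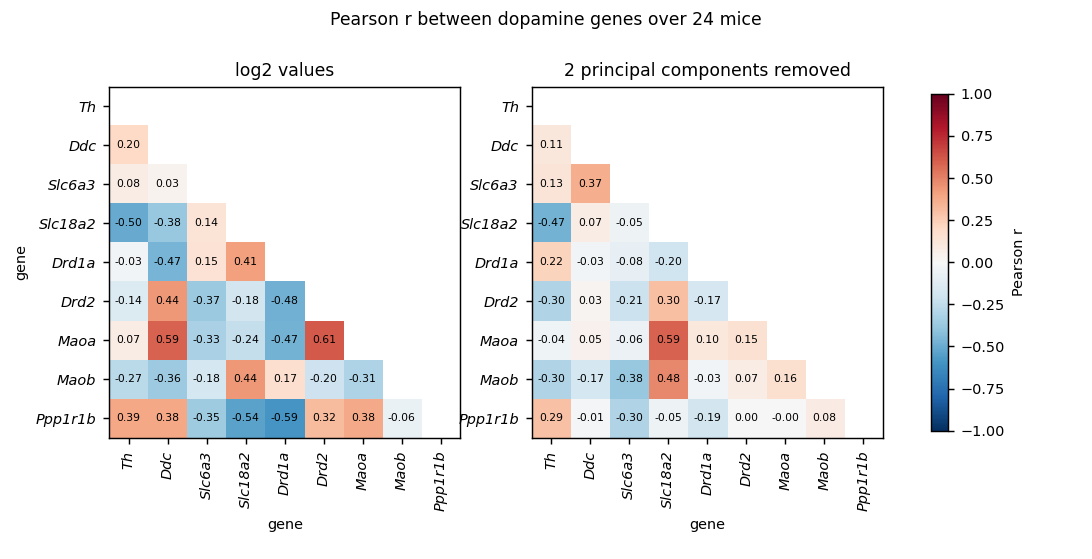
Pearson r (colour and numbers) for the 36 pairs of the 9 dopamine genes over 24 mice, on log2(normalized count + 1) values (left) and after removing both principal components of the other genes (right). On the left r runs from -0.59 to 0.61, and on the right the strongest left-hand pairs are near 0 (*Ddc* with *Maoa* 0.05), while *Slc18a2* with *Maoa* is at 0.59.

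The dissection was checked against lists of marker genes. The hypothalamic markers, 21 of 25 of them in the table, were led by the neuropeptide genes *Pmch* (mean 8130 normalized counts), *Pomc* (2401) and *Gal* (1547), and summed to 15039 to 32274 in the *b6/b6* mice and to 8307 to 39347 in the *cast/cast* mice. The markers of serotonin neurons (*Tph2*, *Slc6a4*, *Fev*, *Gata3*) are not among the genes of the table. Of 72 relations between the 9 genes and 8 lists, 16 passed an adjusted *P* of 0.05 by permutation over the 24 mice. In either set 0 of 72 did (lowest adjusted *P* 0.357 and 0.174). Some of the sums differed between the sets. Markers of the lists were among the genes of the component analysis that defined the sets, so these differences are in part built in. The striatal markers (8 of 10 in the table, led by *Rgs9*, *Rasd2* and *Pde10a*) had 3054 to 4534 in the upper and 2291 to 3250 in the lower set, with little overlap. The hypothalamic sum had a median of 16048 in the upper and 20918 in the lower set, the midbrain dopamine sum 312 and 549, the thalamus sum 4123 and 2982 and the astrocyte sum 21482 and 26451, with ranges that overlapped. Most of the astrocyte sum was *Slc1a2* and *Slc1a3* (means 11145 and 8237), and its markers did not move together. *Slc1a3* was 3148 to 7653 in the upper and 8628 to 13059 in the lower set. *Aldh1l1* instead reached 3740 in the upper against 1796 in the lower set, and *Agt* 2023 against 1148. The choroid plexus sum had a median of 199 in both sets, and the cortical sum ranged from 27.1 to 93.1 in the upper and from 33.7 to 251 in the lower set. The pituitary sum (3 of 8 markers, led by *Gh*) was 170 and 471 in the 2 mice apart, against 0 to 184 in the upper and 0 to 283 in the lower set. *Drd1a*, a receptor of striatal projection neurons, had r = 0.07 with the striatal sum in the lower and 0.62 in the upper set. For *Ppp1r1b*, known from the same neurons, r with the striatal sum was 0.22 and -0.53. *Maoa* had r = -0.06 and -0.87 with the striatal sum. The upper-set values carry the same limit as those of the pairs above, since the first component still varied there. With both components removed 1 relation passed, *Maob* with the sum of the 7 astrocyte markers (r = -0.68, permutation *P* = 0.00053, adjusted 0.0382), and its r was -0.22 in the lower and -0.68 in the upper set. The r of *Maob* with each single marker was not computed. These markers, led by *Slc1a2*, *Slc1a3* and *Aldh1l1*, summed to 16312 to 27453 in the *b6/b6* mice and to 21209 to 28901 in the *cast/cast* mice. The part that the lists had in the levels of the dopamine genes was not tested.

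Within a genotype, 36 relations of the 9 genes with C/P kcal and total kcal over the 10 d were computed, 12 mice at a time, and 0 passed an adjusted *P* of 0.05 by permutation. With C/P kcal none of the 18 had an unadjusted *P* below 0.05. With total kcal 2 did, both for transporters in *cast/cast* mice. *Slc18a2* was lower in the *cast/cast* mice that ate more, with Pearson r = -0.79 (permutation *P* = 0.00272, adjusted 0.0979) and Spearman rho = -0.87 (permutation *P* = 0.0005, adjusted 0.018). Without the 2 mice farthest from the median intake r was -0.72 (permutation *P* = 0.0184), and within the 8 *cast/cast* mice of the lower set it was -0.78 (exact permutation *P* = 0.0227, adjusted 0.409), but with both components removed it was -0.14. *Slc6a3* in *cast/cast* mice had r = -0.60 (permutation *P* = 0.0395, adjusted 0.712) and rho = -0.54 (*P* = 0.076, adjusted 0.569). Its r was -0.36 without the 2 farthest mice and -0.25 within the lower set (exact permutation *P* = 0.551), so it did not hold without the 2 mice or within the set, but with both components removed it was -0.59 (permutation *P* = 0.0464, adjusted 0.8). In *b6/b6* mice the values were 0.32 for *Slc18a2* (permutation *P* = 0.298) and 0.22 for *Slc6a3* (*P* = 0.5). Without the 2 *b6/b6* mice farthest from the median intake the latter was 0.746 (permutation *P* = 0.00479, adjusted 0.172). Whether the genotypes differed in these relations was not tested.

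**Figure D5:**
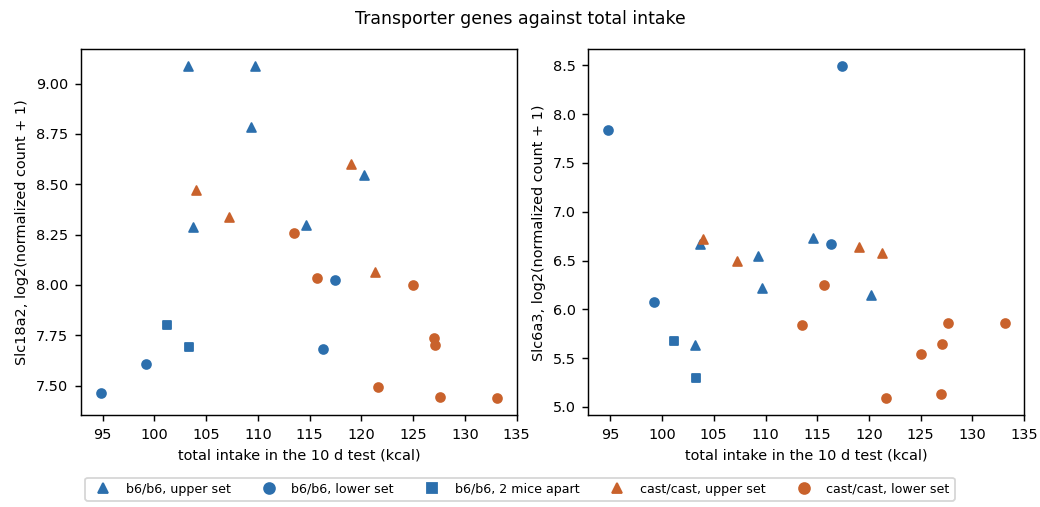
*Slc18a2* (left) and *Slc6a3* (right) as log2(normalized count + 1) (y axes) against total intake in the 10 d test in kcal (x axes), 1 point per mouse, coloured by genotype and shaped by set. The orange points of the *cast/cast* mice fall from left to right for *Slc18a2* (r = -0.79), and the 4 orange triangles of the upper set lie at 121.3 kcal or less.

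The genes whose pattern was most like each dopamine gene were taken as the 3 with the highest Pearson r over the 24 mice, after subtracting the genotype means, as a description with no test. *Th* had few such genes, with *Jakmip1* (r = 0.80), *Phyhd1* (0.80) and *Fbxo2* (0.74), and only 4 genes had an r above 0.7. *Slc6a3* had 1 gene above 0.7, *Wipf2* (0.725), followed by *Lars* (0.70) and *Slc25a13* (0.69). *Maoa* was at the other end, with 943 genes above 0.7, led by *Zfp612* (0.92), *Car8* (0.91) and *Seh1l* (0.91). *Slc18a2* had 323 such genes (*Awat2*, *Homer1* and *Ccny*, r of 0.84 to 0.83), *Drd1a* 318 (*Ssbp3*, *Nhej1* and *4932415G12Rik*, 0.86 to 0.85) and *Ppp1r1b* 258 (*Relt*, *D330023K18Rik* and *Kcne1l*, 0.84 to 0.81). *Ddc* had 133, led by *Rab3b* (0.92), *Gtf3c3* (0.87) and *Rcn2* (0.85), *Drd2* 187, led by *Tnk2* (0.89), *Chst1* (0.87) and *Cacng7* (0.87), and *Maob* 125, led by *Camk1* (0.89), *Riiad1* (0.84) and *Txn2* (0.83). The number of such genes went with the first component, with which *Maoa* had r = -0.79, *Drd1a* 0.71, *Slc18a2* 0.67, *Ddc* -0.66, *Ppp1r1b* -0.64 and *Drd2* -0.60, but *Maob* only 0.32, *Slc6a3* 0.31 and *Th* -0.21. With both components removed the r of *Th* with *Jakmip1* was still 0.80, of *Ddc* with *Rab3b* 0.87 and of *Maob* with *Camk1* 0.89, while that of *Slc18a2* with *Homer1* was 0.56. None of the 9 genes was among the 3 nearest genes of another.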

How the data were processed

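The authors deposited 1 signal value per gene and mouse. They had aligned tags (RefSeq mRNA and GRCm38/mm10) in their modified version of SOLiD SAGE software, counted hits, and scaled each library with a size factor from DESeq. The deposited columns of the authors' own comparisons were not used. In each library 100% of values were whole multiples of 1 step (within 0.01 step), which gave whole tag hits, and no gene had a mean normalized count under 6.03. The table has 19529 rows for 13998 genes, and all 276 pairs of libraries differed by a chi-square of at least 14.7 per degree of freedom, so no mouse was counted in duplicate.

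Groups came from the labels. limma 3.58.1 (trend) was fitted to log2(normalized count + 1) over all genes with a mean of at least 5. edgeR 4.0.16, DESeq2 1.42.0 (R 4.3.3), pseudocounts of 0.5 and 5, a minimum mean of 20 or none, rescaled libraries, study number as a covariate and leaving out each mouse were alternatives. In simulated data with the same groups and size factors (13981 genes) limma called 89% of 2-fold and 96% of 3-fold changes and 0.646% of unchanged genes. The genes were drawn independently, without the shared components of the real libraries. Only genes with higher means than *Drd2* were changed, so these rates do not cover *Drd2*. Correlations used 100000 permutations (seed 1; exact under 10 mice) with Benjamini-Hochberg adjustment (Python 3.11.15, scipy 1.17.1). The genes named were the 9, pathway genes called or else the 3 of lowest *P*, the 3 genes most like each, and the 3 highest markers of a list; other markers were named after their values were seen. Some items of the lists are not reported here by name. The members, lists and rules were chosen with earlier results of these data known.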

Additional observations from a re-analysis of the deposited data

How the results depend on the processing

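The count of dopamine genes called between genotypes was 0 with edgeR, DESeq2, other pseudocounts, other minimum means, rescaled libraries, study number as a covariate and each mouse left out, and the one setting, chosen after seeing the data, that moved it was the lower set of 12 mice, with 1 gene, *Slc6a3*. Having no minimum mean could not move it, because no gene had a mean under 6.03 and the main minimum was 5. The count of all genes called (208) was 391 with edgeR, 395 with DESeq2, 80 at an adjusted *P* of 0.05, 1138 at an unadjusted *P* of 0.05, 137 without the 2 mice apart and 1037 in the upper set, and 145 to 255 with 1 mouse left out, the lowest without *b6/b6* mouse 12. The count of other pathway genes called (0) was 1 with edgeR, 1 with DESeq2, 3 at an unadjusted *P* of 0.05 and 4 in the upper set, and 0 to 1 with 1 mouse left out. The count of pairs (3) was 5 on rescaled libraries, 5 by Spearman's rho, and 0 with the components removed, without the 2 mice apart and in either set. Of relations with intake, 1 passed by Spearman's rho in place of 0. Of relations with marker lists (16), 4 passed with the mean of standardized values, 1 with the components removed, 9 without the 2 mice apart and 0 in either set. The cause of these changes was not tested.

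Signs turned for genes near 0. *Drd1a* (0.01) was -0.0769 on rescaled libraries, -0.0169 with the components as covariates, -0.0300 without the 2 mice apart, -0.0296 in the lower set and -0.0486 to 0.0913 with 1 mouse left out. *Drd2* (0.11) was -0.0660 with study number as a covariate and -0.10 to 0.34 with 1 mouse left out, but 0.64 with the components as covariates, 0.60 in the lower set and 0.44 without the 2 mice apart. *Maob* (-0.06) was 0.0381 with study number, 0.26 in the lower set and -0.1263 to 0.0290 with 1 mouse left out. *Slc6a3* was 0.28 and *Ppp1r1b* -0.41 in the upper set, and *Slc18a2* 0.0698 in the lower set. Rescaling the libraries shifted the median log2 fold change of all genes by -0.09, and the share of genes above 0 went from 47.3% to 34.6%. With 1 mouse left out *Slc6a3* stayed between -0.64 and -0.35 and *Maoa* between -0.40 and -0.24, and neither met the rule. *Drd2* lacks a value at a minimum mean of 20 and in the upper set, where it fell under the minimum. No paired analysis was possible because the replicate numbers of the mice carry no pairing. *Drd2* was at or under 3 tag hits in 5 *b6/b6* and 4 *cast/cast* mice, which limits its precision, and whether depth or the tag counted set this level was not tested.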
